A study of Saccharomyces cerevisiae with 116 samples.

Results

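Ribosome biogenesis factors were followed as a list of 59 genes of budding yeast (Saccharomyces cerevisiae), among 7126 features in the deposited gene counts. The members were given by systematic name and are nucleolar factors of the NOP, NOC, UTP, DBP, RRP, IMP and NOG families with their partners. Grouped by role they were 4 box C/D and 4 box H/ACA snoRNP proteins, 6 DEAD-box helicases, 3 GTPases, 19 other large subunit assembly factors and 23 small subunit processome factors. All 59 had reads and passed the low-count filter of each comparison, so no member is missing from the counts below. RNA was sequenced from mutation accumulation lines, which are carried for many generations through single-colony transfers so that mutations and chromosome gains or losses accumulate with little selection. The HH experiment started from a homozygous diploid, an S288C derivative whose labelled genotype is ho and ade2 with lys2-801 and his3-delta-D200 and, besides, ura 3-52 with leu2-3.112, and its lines had passed 2063 generations. The Hh experiment started from a heterozygous diploid, the cross of NCYC 3631 (from the oak strain YPS606) with NCYC3596 (from DBPVG1106), carrying ho and ura3, and its lines had passed 2108 generations. By the labelled karyotypes there were 10 aneuploid and 11 euploid HH lines and 10 aneuploid and 5 euploid Hh lines, each line being 1 clone sampled as 3 colonies grown in rich glucose medium at 30 °C. Libraries of the ancestors numbered 3 for Hh and, for HH, 3 in a first run and 2 in a second, named run 1 and run 2 by the labels. The libraries of 14 HH lines carry SC in their names, as run 1 does, and those of the other 7 carry X. SC lines were set against run 1 and X lines against run 2, on the assumption, which the labels do not state, that the names mark the run. The libraries of run 2 are named MA_Anc and carry no X. The Hh lines also carry X, while the Hh ancestor is named GC_Anc. The names thus do not tie run 2 or the Hh ancestor to the lines set against them.

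Ribosomes are built in the nucleolus from a long precursor RNA that RNA polymerase I transcribes. Box C/D snoRNPs guide methylation and box H/ACA snoRNPs guide pseudouridylation of this precursor, the small subunit processome folds and cleaves it around the U3 snoRNA, and separate sets of helicases, GTPases and scaffold proteins mature the large subunit. In yeast the genes of these factors are known to be transcribed together, high in fast growth and low in stress or starvation, and many of their promoters hold a pair of short elements called PAC and RRPE.

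The promoters of the members were searched for both elements, because genes of this kind are known for sharing them. PAC was searched as GATGAG and RRPE as AAAAATTT, each on both strands, so that CTCATC and AAATTTTT also count, in the 250 bases before the start of each gene in RefSeq's R64 sequence. PAC was present in 55 of the 59 members (93.2%) and in 17% of 6007 promoters searched, members included. RRPE was present in 49 members (83.1%) against 13.4% of all promoters, and both elements were present in 46 members (78%) against 4.98%. No PAC and RRPE match overlapped. In 39 of the 46 promoters with both, the nearest RRPE lay farther from the gene start than the nearest PAC. With every match counted, the median distance to the start was 114 bases for 84 PAC matches and 138 for 78 RRPE matches in the members. Over the matches in all promoters it was 125 and 132. UTP4, UTP15, SPB1 and UTP22 had no PAC match, and UTP22 had neither element in this window. Of 88 other ribosome assembly factors 68.2% held both elements, while 0.725% of 138 cytosolic ribosomal protein genes did. The stretch holding both elements is printed for the member of each role with the highest level per length, with 15 bases on either side where the 250-base window allows, 5′ to 3′ on the strand of the gene, and capitals mark every PAC and RRPE match.
DBP2: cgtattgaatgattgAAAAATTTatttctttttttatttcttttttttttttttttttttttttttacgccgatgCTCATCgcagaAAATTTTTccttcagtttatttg
NUG1: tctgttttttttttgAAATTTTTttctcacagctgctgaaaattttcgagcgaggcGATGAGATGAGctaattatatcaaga
NOP1: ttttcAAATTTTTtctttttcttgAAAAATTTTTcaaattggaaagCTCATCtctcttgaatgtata
NOP10: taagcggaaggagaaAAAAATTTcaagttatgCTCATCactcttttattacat
NOP16: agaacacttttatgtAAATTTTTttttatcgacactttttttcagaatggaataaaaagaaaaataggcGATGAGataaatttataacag
KRR1: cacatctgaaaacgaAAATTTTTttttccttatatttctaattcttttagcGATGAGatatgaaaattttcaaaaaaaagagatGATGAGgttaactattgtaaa
In R64 coordinates these are chrXIV:413409-413517 (plus strand), chrV:162564-162645 (plus), chrIV:427114-427180 (plus), chrVIII:241519-241571 (plus), chrV:156629-156718 (plus) and chrIII:23427-23531 (minus). PAC stood in the GATGAG orientation in NUG1, NOP16 and KRR1 and as CTCATC in DBP2, NOP1 and NOP10. NUG1 and KRR1 each held 2 PAC matches, and in NUG1 these overlap each other. The matches describe these letters in this window and do not show that a factor binds there.

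The 116 libraries held 4129372 to 12148296 reads in genes, and the members took 0.146% to 1.02% of them. The reads without a unique alignment were a median of 19.2% in HH SC libraries, 28.4% in HH X libraries and 9.76% in Hh libraries. URA3 had at most 2 reads in any Hh library, and HIS3 had none in the HH ancestor but up to 11 in HH29, 26 in HH112 and 18 in HH123. Replicate 1 of HH123, of Hh11 and of Hh59 went against the labelled karyotype on chromosome V (median log2 ratio to euploid lines −0.02), XV (−0.03) and VII (0.01). All 3 libraries labelled HH152 stayed near the euploid level on chromosome VII (−0.01), which the label calls trisomic. Chromosome VIII of HH152 (0.53) and XII of Hh18 (0.50) stood higher without such a label. Class and dosage comparisons were also run without these 3 single libraries and all of HH152 and Hh18, together called the doubted libraries.

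Per length, the members spanned a wide range. Levels are CPM (read counts scaled to library size) divided by coding length in kb, averaged over all libraries. NOP10 (YHR072W-A), a small core protein of box H/ACA particles, was highest at 840 CPM per kb, with single libraries from 302 to 2432. NOP16 (YER002W), a pre-60S component, followed at 276. The other H/ACA proteins came next, with NHP2 (YDL208W) at 210, GAR1 (YHR089C) at 121 and the pseudouridine synthase CBF5 (YLR175W) at 109. NOP1 (YDL014W), the methyltransferase of box C/D particles, stood at 82.0, the helicase DBP2 (YNL112W) at 80.3, the processome protein KRR1 (YCL059C) at 76.1 and the GTPase NUG1 (YER006W) at 56.2. The ranges of single libraries of these 4 overlapped widely, from 12.4 to 417 for NOP1 and from 26.5 to 187 for KRR1. The lowest levels were those of the large processome proteins UTP10 (YJL109C) at 11.1 and UTP22 (YGR090W) at 10.1. By role the median was 166 for H/ACA, 67.0 for C/D, 56.1 for the GTPases, 34.2 for large subunit assembly, 32.7 for the helicases and 18.4 for the processome. The median over the members was 33.3, below the 50.0 over 5905 genes with reads and a coding length. SSF1 (YHR066W) has a near-identical copy, SSF2, and its values are uncertain.

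The members moved together from library to library, and in some lines the colonies stood far apart. A library's level is given here as the median over the members of log2 CPM minus the mean of that gene over the libraries of its experiment and name series. In HH29 the 3 colonies stood at −1.30, −0.34 and 1.04. In HH112 they stood at 1.19, −1.12 and 0.19, and in HH50 at −1.08, −0.87 and 0.49. The colonies thus spanned 2.34 log2 units in HH29 and 1.57 in HH50. HH152, also an X line, was high in all colonies at 0.62, 0.83 and 0.94, and HH108, an SC line, was high at 0.76, 0.43 and 0.70. Among SC lines HH4 had the lowest mean over its colonies, at −0.55. Among Hh lines Hh5 was lowest, with −0.94 in replicate 1 and −0.22 and −0.07 in the others, and Hh49 was low in all colonies at −0.45, −0.39 and −0.32. The median SD between colonies of a line was 0.36 for the members in SC libraries, 0.80 in HH X libraries and 0.34 in Hh libraries. Over all genes tested it was 0.30, 0.48 and 0.35. For ribosomal protein genes it was larger than for the members, at 0.57, 0.93 and 0.50. It was 0.47, 0.70 and 0.70 for 30 general stress genes and 0.30, 0.59 and 0.33 for the other assembly factors.

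**Figure D1:**
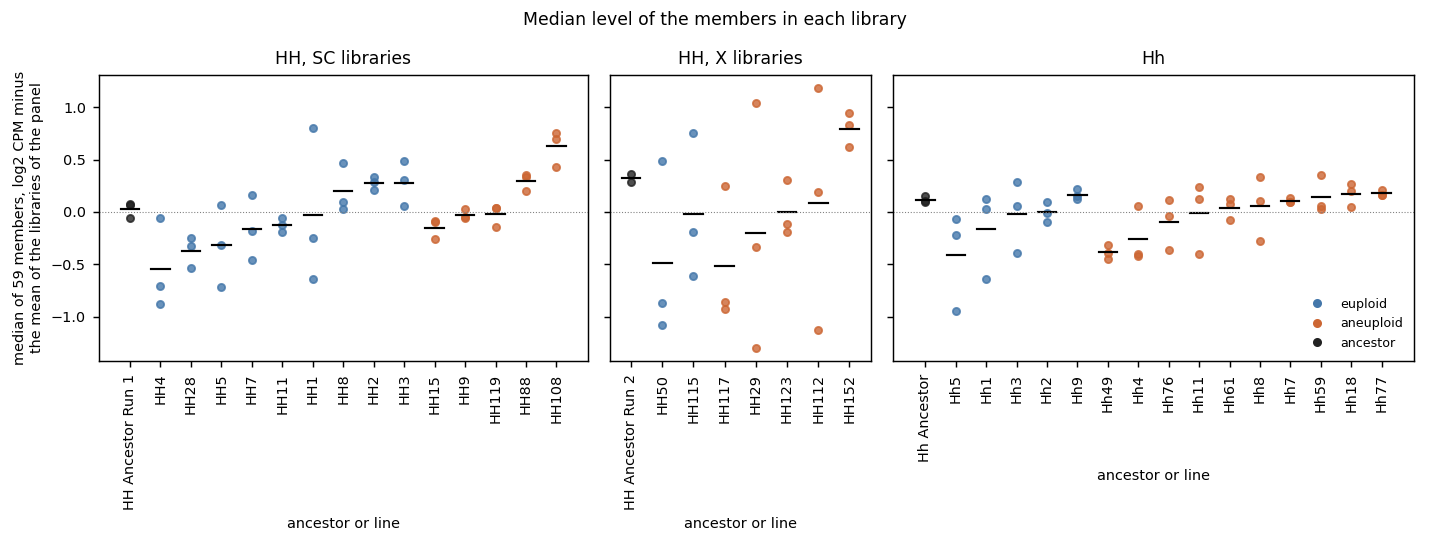
Level of the 59 ribosome biogenesis factors in each library, as the median over members of log2 CPM minus the mean of the libraries of the panel (vertical axis, log2), for each ancestor and line (horizontal axis, blue euploid, orange aneuploid, black ancestor). Points are libraries and bars their mean; the colonies of HH29 run from −1.30 to 1.04 while those of HH108 stay between 0.43 and 0.76.

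Correlations within each set of libraries describe how closely single members followed the rest. The median Pearson r of a member's log2 CPM with the mean of the other members was 0.84 over 45 HH SC libraries, 0.94 over 23 HH X libraries and 0.65 over 48 Hh libraries. These points share line, library and scaling, so r carries no test. NOP56 (YLR197W), a core box C/D protein, reached 0.99 in the HH X libraries, and ERB1 (YMR049C), a scaffold of large subunit assembly, reached 0.94 in SC. NOP16 did not follow the rest, with r of −0.07 in SC, −0.49 in HH X and 0.08 in Hh libraries. UTP7 (YER082C), a processome protein, was lowest in Hh at −0.30. The level of the members ran with that of the 88 other assembly factors (r of 0.92 in SC, 0.98 in HH X and 0.87 in Hh libraries) and of 8 RNA polymerase I subunits (0.91, 0.99 and 0.86). It ran less closely with ribosomal protein genes (0.54, 0.79 and 0.72) and opposite to 30 general stress genes (−0.56, −0.64 and −0.54). In HH libraries it also ran with the percentage of reads not aligned uniquely (0.40 in SC and 0.43 in X, and 0.01 in Hh) and, in HH X, with the slope of expression on coding length within the library (0.68, beside 0.26 in SC and −0.09 in Hh). The part of either in the level was not tested.

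**Figure D2:**
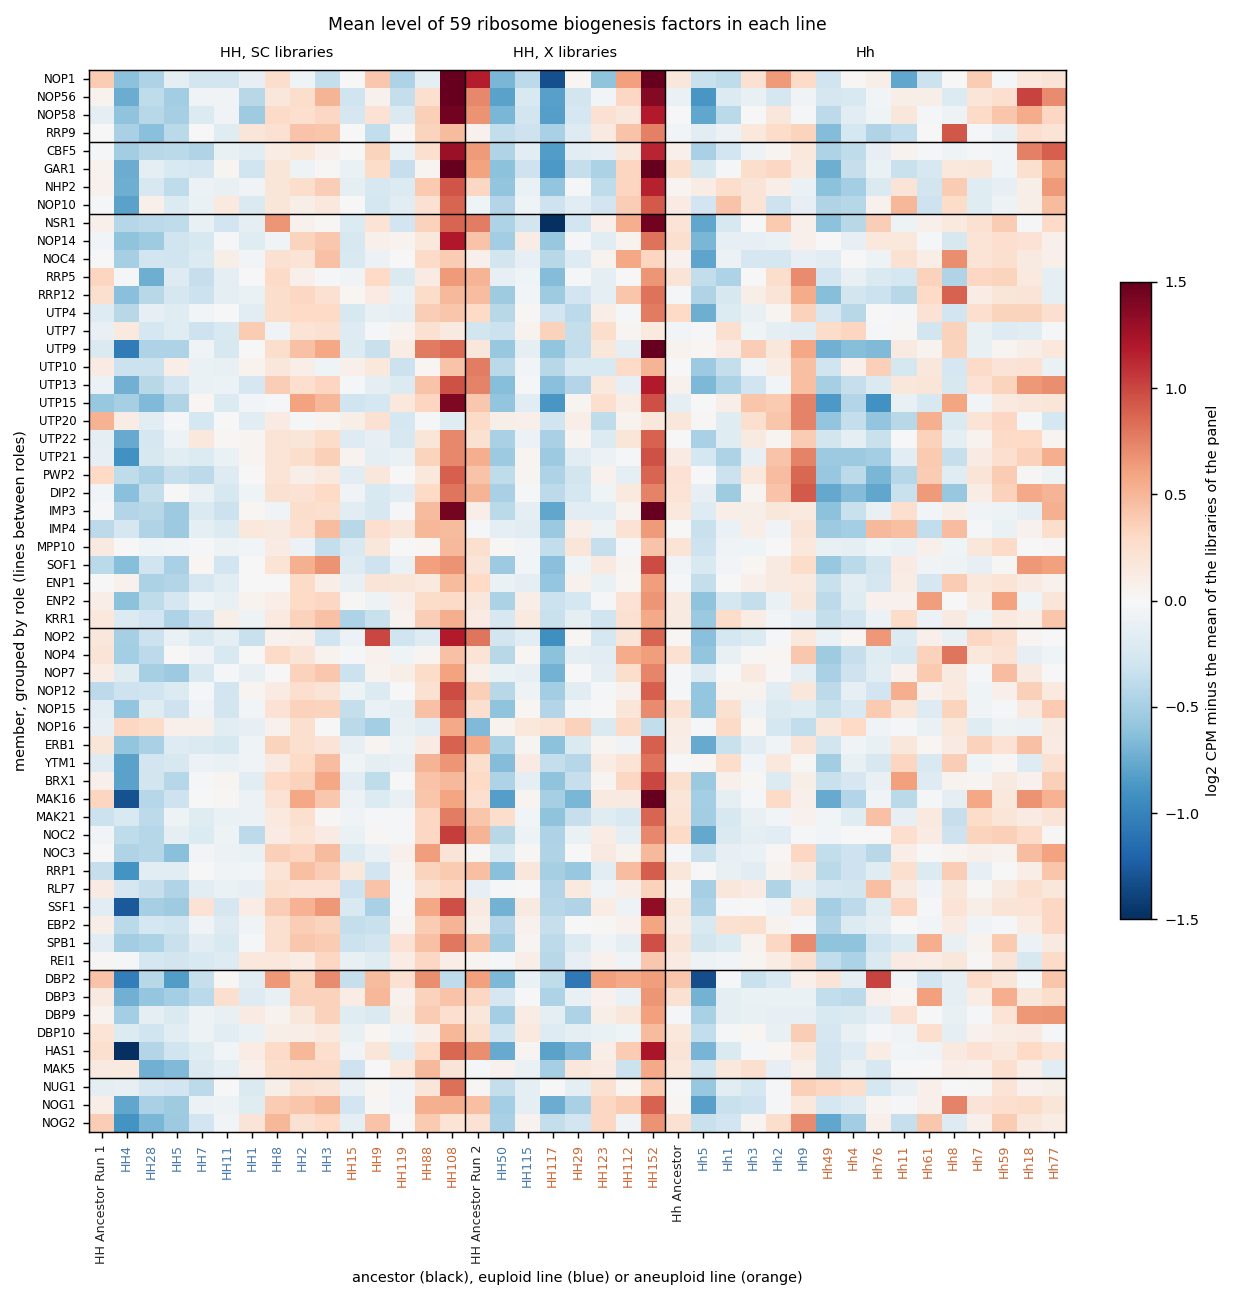
Mean log2 CPM of each member (vertical, lines between roles) in each ancestor and line (horizontal), minus the mean of the libraries of the panel, in colour from −1.5 to 1.5. Most members are high in HH108 and HH152 and low in Hh5, and NOP16 departs from that pattern in HH152.

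In HH, aneuploid and euploid lines were compared to see whether an extra or missing chromosome goes with a different level of these genes. Lines were the replicates (counts of the colonies summed), and the name series was a term of the model. The edgeR quasi-likelihood test called 0 of 6268 genes at a Benjamini-Hochberg adjusted p of 0.05 (percentage called 0), with 614 at an unadjusted p below 0.05. Among the 59 members 0 were called and 10 had an unadjusted p below 0.05, and DESeq2 called 1 gene and 0 members. Of the 59 members 57 had a fitted difference above 0, higher in aneuploid lines, with a median log2 difference of 0.24, beside 0.01 over all genes. By role the median was 0.56 for box C/D, 0.45 for H/ACA, 0.26 for the GTPases, 0.22 for large subunit assembly, 0.20 for the processome and 0.17 for the helicases. Members are not independent of each other, so their shared sign is no replicate.

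The members nearest to the threshold in HH came from several roles. NUG1 ranged in aneuploid lines from 63.7 CPM in HH15 to 156 in HH152, with a median of 118, and in euploid lines from 52.7 in HH7 to 109 in HH115, with a median of 68.7. These CPM are not adjusted for the name series, and the X lines are 5 of the 10 aneuploid and 2 of the 11 euploid lines, where HH50 (98.3) and HH115 were highest for NUG1, whereas the fitted differences are adjusted. CBF5 ranged from 112 in HH117 to 377 in HH152 (median 173) in aneuploid lines and from 107 to 164 (median 134) in euploid lines. In both the classes overlapped over most of the euploid range, and HH152 held the highest value. Their log2 differences were 0.32 ± 0.12 (SE) for NUG1 and 0.54 ± 0.20 for CBF5. The rRNA methyltransferase NOP2 (YNL061W) differed by 0.50 ± 0.19, the box C/D protein NOP58 (YOR310C) by 0.55 ± 0.22 and NOC2 (YOR206W), a factor of pre-60S export, by 0.36 ± 0.15, with an edgeR adjusted p of 0.502 for each of the 5. Of the members with the highest level in their role, NOP1 differed by 0.68 ± 0.32, NOP10 by 0.30 ± 0.18, DBP2 by 0.18 ± 0.25, KRR1 by 0.09 ± 0.15 and NOP16 by −0.11 ± 0.14. Beside the members, 130 of 137 ribosomal protein genes had a fitted difference above 0 (median 0.31), and the median of the stress genes was −0.10. Without the doubted libraries 56 members were above 0 and the median was 0.16. Without HH108 alone NOP1 stood at 0.27, NOP58 at 0.28, NOC2 at 0.18, CBF5 at 0.33, NUG1 at 0.19 and NOP2 at 0.33. Without HH108 and HH152, a choice made after seeing the data, 50 members were above 0 and the median was 0.08, with NOP1 at 0.15 and KRR1 at −0.052.

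In Hh, 41 of 59 members had a fitted difference above 0, higher in aneuploid lines, and 18 one below 0, with a median log2 difference of 0.10, beside 0.04 over all genes. The same test called 261 of 6189 genes higher (4.22%) and 350 lower (5.66%), and it called 1 member higher and 0 lower. The member is 1.69% of the list, below the share of all genes. Scaling to total counts moved all genes down together, to a median of −0.13, and with them the members to −0.06, with 23 of 59 above 0, while the members minus all genes went from 0.06 to 0.07. At an unadjusted p below 0.05 there were 11 members. The member called was NOC4 (YPR144C), which acts with NOP14 in small subunit assembly. NOC4 ranged from 49.7 CPM in Hh49 to 87.7 in Hh8 (median 63.2) in the 10 aneuploid lines and from 33.3 in Hh5 to 51.8 in Hh9 (median 46.9) in the 5 euploid lines. Only the lowest aneuploid line lay within the euploid range, while Hh8, the highest, carries 4 copies of chromosome XVI, where NOC4 lies. NOC4 rose by 0.46 ± 0.13 (SE), with an edgeR adjusted p of 0.0389.

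The NOC4 call depended on the processing. Scaling to total counts gave 0.30 (edgeR adjusted p 0.216), an offset for chromosome copies gave 0.36 (0.0506) and leaving out the doubted libraries gave 0.48 (0.0742). Leaving out Hh5 gave 0.37 (0.127), and the call also missed the threshold without Hh2 (0.0935), Hh3 (0.0962), Hh7 (0.0598), Hh59 (0.0585) or Hh61 (0.0536), where the difference stayed at 0.45 to 0.47. Without the doubted libraries 40 members were above 0. The call held without Hh8 (0.40, adjusted p 0.0171). The count of all genes called, 611, was 26 without Hh5, 27 without Hh3, 37 without Hh2, 223 without Hh7, 249 without Hh49, 306 without Hh59, 331 without Hh76, 402 without Hh61, 1547 without Hh8 and 53 without the doubted libraries.

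The other members in Hh stayed short of the threshold. NOC2 was nearest, with 67.7 to 112 CPM in aneuploid lines (median 94.9) and 52.9 to 83.5 in euploid lines (median 76.9), a difference of 0.39 ± 0.13 at an edgeR adjusted p of 0.0606. DBP2 differed by 0.52 ± 0.22, NUG1 by 0.20 ± 0.13, NOP16 by 0.10 ± 0.12, KRR1 by 0.09 ± 0.14, NOP10 by 0.04 ± 0.20 and NOP1 by −0.11 ± 0.18. By role the median was 0.28 for the helicases, 0.20 for the GTPases, 0.14 for C/D, 0.12 for large subunit assembly, 0.07 for the processome and −0.03 for H/ACA. Ribosomal protein genes had a fitted difference above 0 in 129 of 135, with 0 called and a median of 0.35. The stress genes had a median of 0.25, with 2 called higher and 5 lower. Hh5 was the lowest euploid line for NOC4, NOC2, CBF5, NOP58 and NUG1, and without it the median of the members was 0.03.

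**Figure D3:**
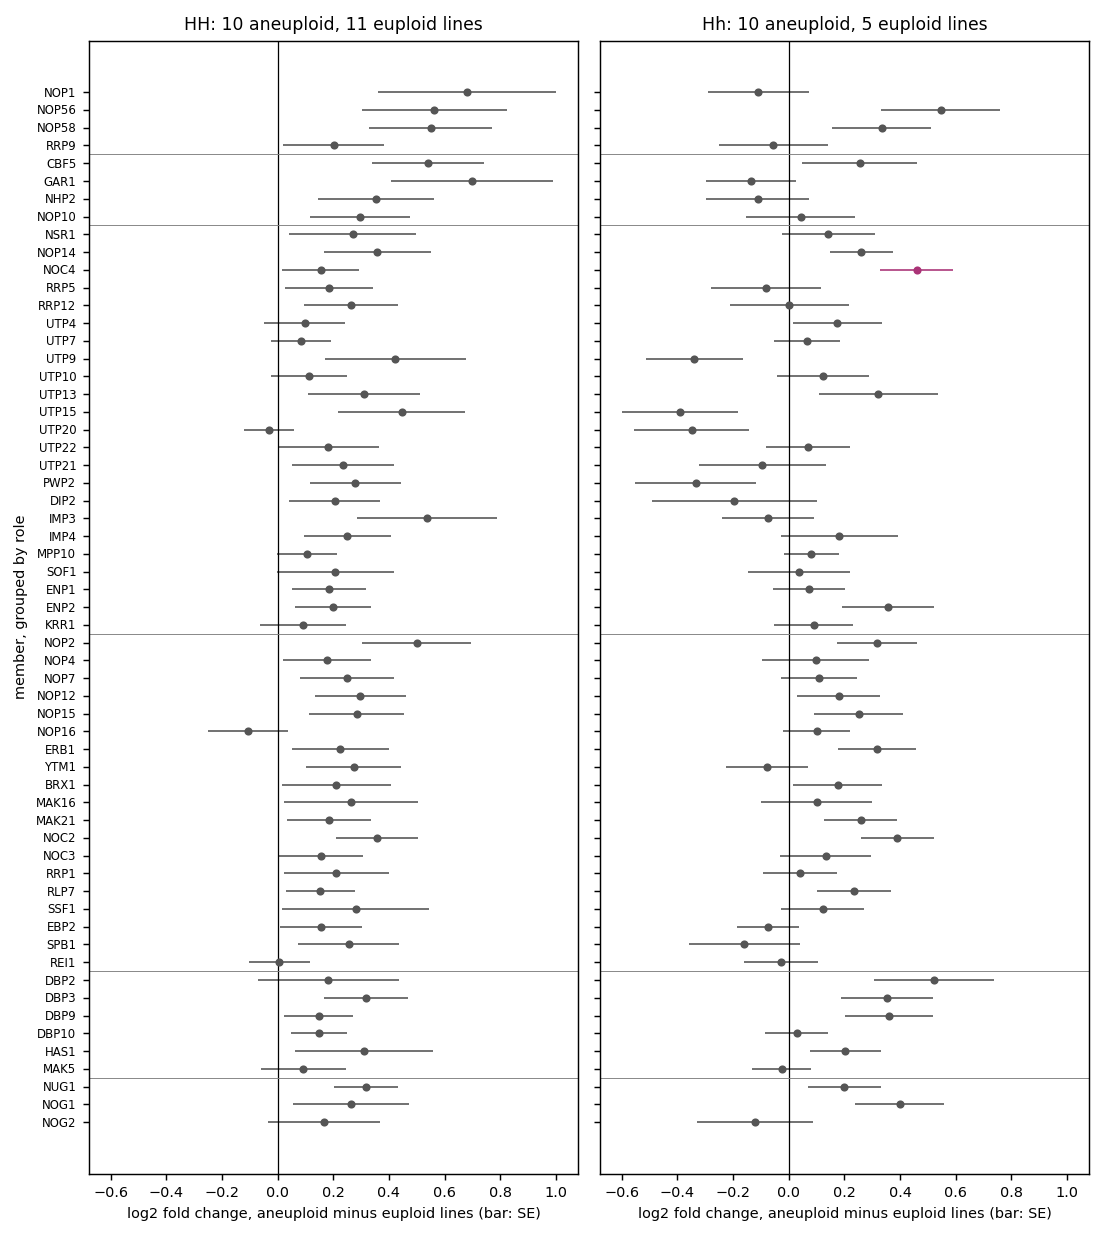
Log2 difference of aneuploid minus euploid lines for each member in HH (left) and Hh (right), on a horizontal log2 axis with bars for the standard error, grouped by role. In HH 57 of 59 members lie right of 0 and none was called, and in Hh 41 do, with NOC4 at 0.46 (coloured) the member called.

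Whether the class difference itself differed between the experiments was tested as an interaction. It passed for 324 of 6370 genes (5.09%) and for 0 of 59 members, of which 4 had an unadjusted p below 0.05 (edgeR). UTP15 (YMR093W), of the processome's transcription-linked subcomplex, was nearest, with a class difference of 0.45 in HH and −0.39 in Hh, so that Hh minus HH was −0.82 ± 0.33 (edgeR adjusted p 0.129). UTP9 (YHR196W) had −0.74 ± 0.34, PWP2 (YCR057C) −0.59 ± 0.28 and GAR1 −0.81 ± 0.38. The next was NOP1, with −0.77 ± 0.42.

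Each line was then set against its own ancestor, with colonies as replicates. Over 21 HH lines 1.2% of gene and line pairs were called higher and 1.07% lower, and among members 9 pairs were called higher and 0 lower. Over 15 Hh lines 1.37% of pairs were called higher and 0.993% lower, and among members 4 were called higher and 14 lower. These were 0.726% and 0% of the member and line pairs in HH and 0.452% and 1.58% in Hh. All member calls fell in HH108, Hh5 and Hh8. In the other 33 lines edgeR called 0 of 1947 pairs, with 108 at an unadjusted p below 0.05, and DESeq2 called 1 member in HH112 and 2 in Hh77. Over all genes, edgeR calls in these 33 lines ran from 0 of 6203 in HH2 to 184 higher and 108 lower in HH4. Without the HH libraries numbered 3, 72 pairs were called lower in HH, of which 35 were in HH50, 23 in HH117 and 10 in HH29, all X lines. The share of all genes called in that setting is not given, so the 72 pairs cannot be read as particular to the members. In 6 of the 7 X lines the colony numbered 3 had the highest level of the members, and run 2, with libraries numbered 1 and 2, lost none in that setting, though its replicate 2 carries the name suffix of those colonies. Lines of an experiment and name series share their ancestor libraries, so their differences are not independent. In HH X and Hh lines the ancestor libraries are named unlike the lines, so line and library set cannot be told apart.

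HH108 carries 3 copies of chromosome VIII and 1 of IX, and 56 of 59 members had a fitted difference above 0 against ancestor run 1, with a median log2 difference of 0.68. In this line 15.9% of genes were called higher, and 9 members were called (15.3%), a share near that of all genes. The called members were the processome proteins UTP15, IMP3 (YHR148W), NOP14 (YDL148C) and UTP9, the H/ACA proteins NOP10 and GAR1, the large subunit factors NOP12 (YOL041C) and NOP15 (YNL110C), and NUG1. UTP15 measured 52.2, 37.5 and 52.6 CPM in HH108 and 23.6, 6.94 and 9.35 in the ancestor. GAR1 measured 250, 179 and 224 CPM against 64.8, 77.2 and 82.7. The colonies of HH108 lay above all ancestor libraries for both, and the ancestor libraries differed more among themselves for UTP15 than for GAR1. UTP15 rose by 1.83 ± 0.54 (edgeR adjusted p 0.00721) and GAR1 by 1.54 ± 0.62 (0.0485). IMP3, NOP10, GAR1 and UTP9 lie on the trisomic chromosome VIII, and the other 5 do not. IMP3, which binds U3 within the processome, rose by 1.52 ± 0.48 (0.0127), and NOP14 by 1.24 ± 0.49 (0.0446). Among the 88 other assembly factors 18 were called higher and 4 lower. Run 1 was the reference here, and the HH ancestor differed between its runs, as described below. Of the members 22 had an unadjusted p below 0.05. Without replicate 1 the count of called members in HH108 was 2, without replicate 2 it was 1, and scaling to total counts left 4. It was 14 under DESeq2, 12 with replicate number as a block and 28 with the mean of the euploid lines as reference. With that reference 18 members were also called higher in HH152. The share of all genes is not given for these settings.

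Hh5, a euploid line, had the largest number of members called lower. In 55 of 59 the fitted difference from the Hh ancestor was below 0, with a median log2 difference of −0.50. Of all genes 9.54% were called lower in it, and 14 members were called lower (23.7%). They included 4 of the 6 helicases (DBP2, DBP3, DBP10 and HAS1), the large subunit factors NOC2, MAK21, NOP4, ERB1 and BRX1, the GTPase NOG1 and the processome proteins UTP4, NOC4, MPP10 and NOP14. DBP2 measured 15.2, 42 and 35 CPM in Hh5 and 94.3, 96.1 and 97.5 in the ancestor. NOC2 measured 32.9, 53.2 and 72.4 CPM against 113, 97.0 and 104, and UTP4 (YDR324C) 22.1, 36.0 and 41.0 against 69.3, 63.1 and 66. For these members all colonies of Hh5 lay below all ancestor libraries, with replicate 1 lowest. DBP2 fell by 1.64 on the log2 scale (SE 0.52, edgeR adjusted p 0.0253), NOC2 by 0.99 (SE 0.25, 0.00886) and UTP4 fell by 1.004 (SE 0.25, 0.00835). The smallest called differences were those of MPP10 (YJR002W), which fell by 0.50 (SE 0.15, 0.0179), and DBP10 (YDL031W), by 0.50 (SE 0.18, 0.0454). Beside them 132 of 135 ribosomal protein genes had a difference below 0, 14 of them called, and the stress genes had a median of 0.39, with 6 called higher. The number of members called in Hh5 was 0 without replicate 1, 0 without replicate 2, 16 without replicate 3, 5 under scaling to total counts and 1 with the mean of the euploid lines as reference. Members also stood low in lines with 0 called. In Hh49, 56 of 59 were below 0, with a median of −0.53 and 26 at an unadjusted p below 0.05, beside 23 in Hh5. The medians of HH117 and HH50 against their ancestor were −0.70 and −0.56.

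In Hh8, with 4 copies of chromosome XVI, 8.3% of genes were called higher and so were 4 members (6.78%). All 4 lie on chromosome XVI. RRP9 (YPR137W), the U3-specific protein, measured 78.6, 63.6 and 61.1 CPM in Hh8 and 30.8, 34.6 and 37.9 in the ancestor, and rose by 0.98 ± 0.25 (edgeR adjusted p 0.00794). RRP12 (YPL012W), a factor of subunit export, rose by 0.92 ± 0.28 (0.0243), NOG1 (YPL093W) by 0.73 ± 0.24 (0.0417) and NOC4 by 0.64 ± 0.22 (0.0463). The groups did not overlap for any of the 4. The median over all members in Hh8 was −0.02. Without replicate 1 or 2 the count of members called higher was 0, and without replicate 3 it was 1.

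The ancestors differed in many members, and the direction depended on which run of the HH ancestor was used. All ancestor comparisons came from 1 fit of 8 libraries and share libraries with each other. In a bulk sample, fewer cells with an RNA and less of it per cell cannot be told apart. Against run 2, the Hh ancestor had 21 members called lower (35.6%) and 0 higher, with a median log2 difference of −0.36, while edgeR called 25.2% of 6046 genes lower and 24.8% higher. DESeq2 called 22 lower and 0 higher. In edgeR 26 members had an unadjusted p below 0.05, beside 3411 of 6046 genes. Without replicate 1 of run 2 the members called lower numbered 9. The share of all genes is not given for DESeq2 or without that replicate. Against run 1 it had 18 members called higher (30.5%) and 8 lower (13.6%), with a median of 0.25, beside 30.2% and 30.7% of genes. Between the runs of the same HH ancestor, run 2 had 30 members called higher (50.8%) and 1 lower (1.69%), with a median of 0.52, beside 27% and 24.3% of genes. The Hh ancestor libraries carry names unlike those of either run, so strain and library set cannot be told apart for any member. This holds also where both runs give the same sign.

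Single members show what moved between the runs. UTP15 measured 23.9, 7.06 and 9.48 CPM in run 1, 44.7 and 37.2 in run 2, and 16.4, 19.3 and 20.9 in the Hh ancestor. UTP13 (YLR222C), of the UTP-B subcomplex, measured 20.1, 22.1 and 19.1 CPM in run 1, 62.5 and 55.2 in run 2, and 39.5, 41.9 and 41.9 in Hh. Run 2 was above run 1 for both without overlap, and for UTP13 the Hh ancestor lay between them. From run 1 to run 2 UTP15 rose by 1.59 ± 0.39 (edgeR adjusted p 0.00569), UTP13 by 1.52 ± 0.16 (2.82e-05), the large subunit factors NOP12 by 1.39 ± 0.23 (0.000474) and RRP1 (YDR087C) by 1.29 ± 0.27 (0.00202), and UTP10 by 1.31 ± 0.23 (0.000698). NOP16 was the member called lower, with 242, 193 and 297 CPM in run 1 and 119 and 135 in run 2, and it fell by 0.94 (SE 0.29, 0.0184). Hh was lower than run 2 and higher than run 1 in UTP13 (−0.52 ± 0.16 and 1.01 ± 0.15) and NUG1 (−0.55 ± 0.16 and 0.41 ± 0.15), each past the threshold.

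Other members were lower in the Hh ancestor whichever run was taken. NSR1 (YGR159C), the yeast nucleolin, measured 60.9, 102 and 79.0 CPM in run 1, 147 and 116 in run 2 and 37.9, 49.2 and 44.4 in Hh. DBP2 measured 185, 241 and 193 CPM in run 1, 242 and 136 in run 2 and 93.5, 94.0 and 95.5 in Hh, and DBP3 (YGL078C) 128, 133 and 133 in run 1, 152 and 148 in run 2 and 79.3, 74.2 and 68.3 in Hh. In all of them each Hh library was below each HH library. Against run 2 and run 1 in turn, NSR1 differed by −1.59 ± 0.22 and −0.88 ± 0.20, DBP3 by −1.02 ± 0.15 and −0.83 ± 0.14, DBP2 by −1.003 ± 0.23 and −1.13 ± 0.21, KRR1 by −0.61 ± 0.19 and −0.49 ± 0.18 and NOP7 (YGR103W), a partner of ERB1, by −0.49 ± 0.18 and −0.51 ± 0.17, each with an edgeR adjusted p under 0.05 over the 8 libraries. Without replicate 1 of run 2, DBP2 differed from run 2 by −0.53, with an edgeR adjusted p of 0.0714. NOP58 had −1.12 ± 0.22 against run 2 and −0.06 ± 0.20 against run 1, the latter with an adjusted p of 0.804. Ribosomal protein genes ran the other way from the members against run 2, with 81 of 135 called higher in Hh, 5 lower and a median of 0.75.

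**Figure D4:**
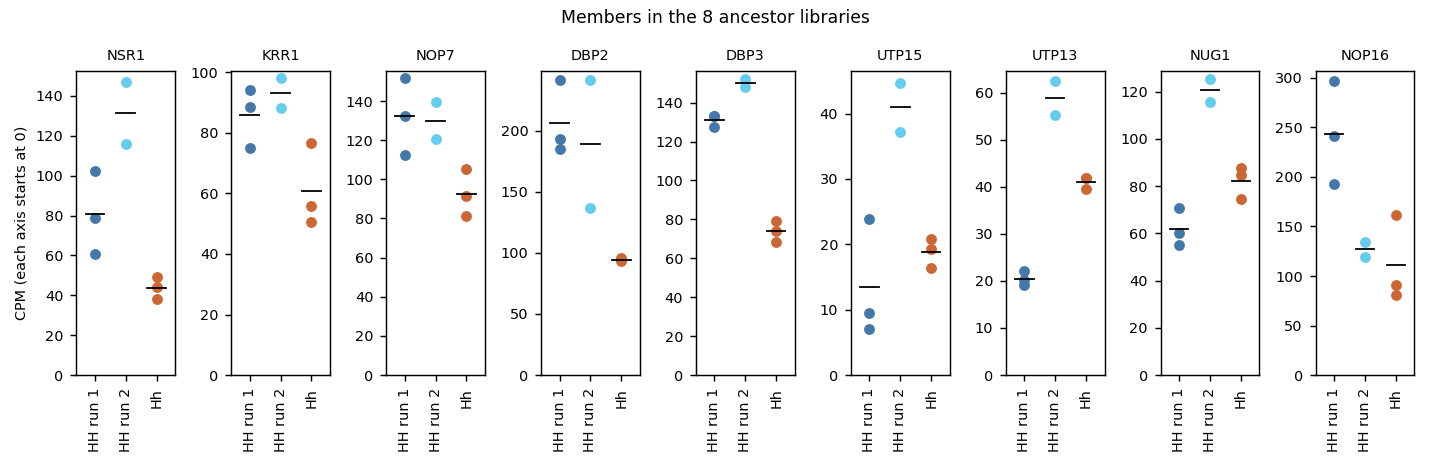
CPM (vertical axes, each from 0) of 9 members in the 8 ancestor libraries, with a point for each library and a bar at the mean of HH run 1, HH run 2 and Hh. NSR1, DBP2 and DBP3 are lowest in every Hh library, UTP13 and NUG1 in Hh lie between the runs, and NOP16 is higher in run 1 (193 to 297) than in run 2 (119 and 135).

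Coding length moved with the difference between the runs. For genes under 1 kb the median of run 2 minus run 1 was −0.37 over all genes and 0.26 over 13 members, for 1 to 2 kb it was 0.11 and 0.54 over 27 members, and over 2 kb it was 0.40 and 0.90 over 19 members. In each length class the median of the members lay above that of all genes. With an offset that removes the trend with length, a choice made after seeing the data, 30 members were called higher and 2 lower, with a median of 0.49. The share of all genes called with this offset is not given, so these counts cannot be read as particular to the members. For the Hh ancestor against run 2 no such trend ran over all genes (medians of 0.00, −0.02 and 0.03), and the members stood at −0.46, −0.49 and −0.17. Against run 1 the trend was present, with medians of −0.38, 0.06 and 0.43 over all genes and −0.27, 0.17 and 0.53 over the members. The members called against run 1 thus come from a comparison that carries this trend.

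Members on chromosomes with altered copy number were compared with euploid lines of the same experiment and name series, to see how far their RNA followed gene dosage. The values are log2 ratios of CPM + 0.5, averaged over the 3 colonies, and 3 copies in place of 2 would give 0.585 if RNA were proportional. Over 65 pairs of a member and a trisomic line, covering 38 members, the median was 0.61, 62 were above 0, and the range was −0.32 to 1.93. Without the doubted libraries there were 58 such pairs, with a median of 0.604, 55 above 0 and a lowest ratio of −0.19. The members on other chromosomes did not stand at 0 in these lines, and the median after subtracting theirs was 0.52. HH X lines have only HH50 and HH115 as euploid reference. For the 5 members on the tetrasomic chromosome XVI of Hh8 the ratios were 0.82 to 1.01, with a median of 0.85, beside 1 for proportional RNA.

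The same gene often gave unlike ratios in lines with the same gain. On chromosome XIV, DBP2 stood at 0.60 ± 0.10 (SD, n = 3 colonies) in HH9 and 1.38 ± 0.32 in Hh76, NOP2 at 1.204 ± 0.09 and 0.85 ± 0.20, NOP15 at −0.04 ± 0.02 and 0.56 ± 0.55, and the GTPase NOG2 (YNR053C) at 0.56 ± 0.13 and −0.01 ± 0.29. On chromosome V, NOP16 stood at 0.09 ± 0.36 in HH117, −0.32 ± 0.22 in HH123 (where replicate 1 is a doubted library, without the gain), 0.37 ± 0.31 in Hh4 and 0.24 ± 0.18 in Hh49. In HH112, trisomic for XVI, NOG1 ran from −1.14 to 2.13 over the colonies. The level of all members in these libraries also ran widely, at 1.19, −1.12 and 0.19, and the source of this spread was not tested. MAK16 (YAL025C), a large subunit factor on chromosome I, stood at 0.64 ± 0.13 in Hh7, 0.73 ± 0.11 in Hh18 and 1.93 ± 0.10 in HH152, each labelled trisomic. In Hh11, labelled monosomic for chromosome I, its colonies stood at 0.68, −0.14 and −1.57, and the first of these is the doubted library. The unlabelled gains also held members, whose median was 1.79 for the 5 on chromosome VIII of HH152 and 0.73 for the 8 on XII of Hh18. In HH152 the members on other chromosomes stood at 1.02.

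**Figure D5:**
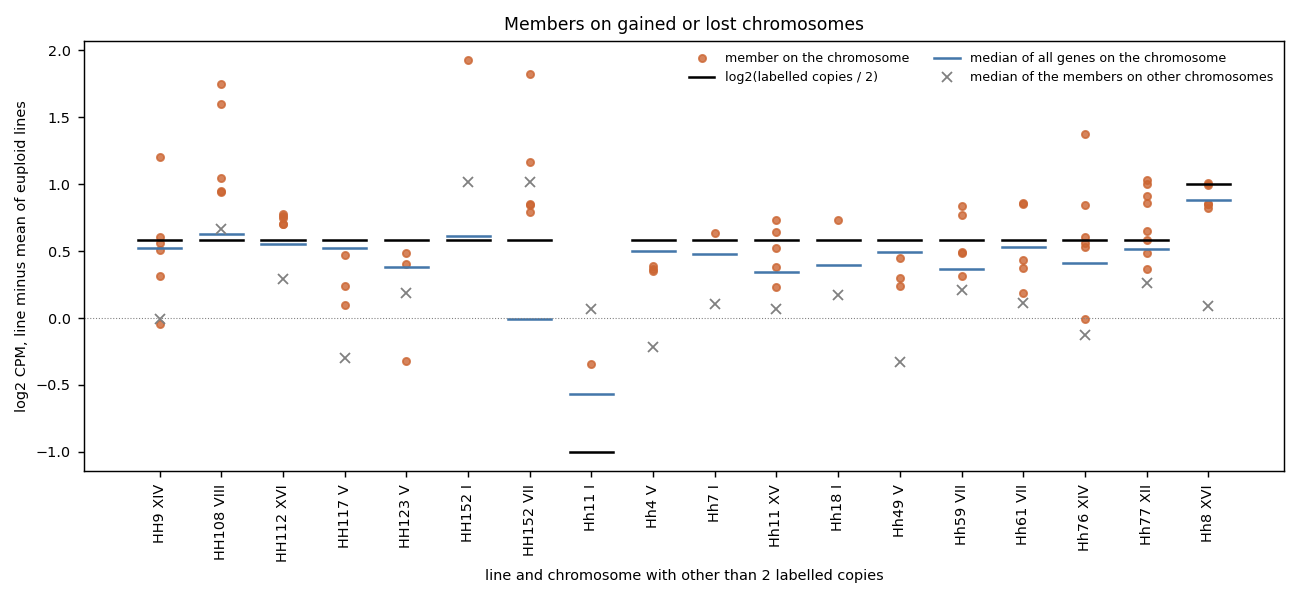
Log2 ratio to euploid lines (vertical axis) of each member on a chromosome with a labelled change of copy number (orange points), by line and chromosome, with black bars at the value for proportional RNA, blue bars at the median of all genes of the chromosome and crosses at the median of the members on other chromosomes. The trisomic members have a median of 0.61, MAK16 in HH152 is highest at 1.93, and in HH152 and HH108 the crosses stand at 1.02 and 0.67.

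A slope of log2 level on log2 copies was fitted over the lines of each experiment, with lines as replicates, where 1 is proportional and 0 is no response. In HH, 25 members could be tested, with a median slope of 1.201 beside 0.73 over 2248 genes. The slope was above 0 for 5 members (20%), against 26.2% of genes. Without the doubted libraries, and so without HH152, it was above 0 for 7 of 19 members. The share of genes in that setting is not given. The edgeR test of a slope other than 1 called 0 members, of which 4 had an unadjusted p below 0.05, against 8.01% of genes. GAR1 had the steepest slope among the 5, at 2.88 ± 0.84 (adjusted p against 0 of 0.0141), MAK16 had 2.70 ± 0.62 (0.00256), IMP3 2.64 ± 0.71 (0.00844), UTP22 1.61 ± 0.57 (0.0389) and NOP10 1.53 ± 0.57 (0.0493). Each of these rests on 1 altered line, HH108 for chromosome VIII and HH152 for I and VII, and in both the members on other chromosomes stood high as well. Chromosome VII of HH152 stood at −0.01 over all its genes, so the slopes of UTP22 and the other members on VII measure no response to a copy change. All 5 members on VII are among the 25 tested, and the median slope of 1.201 is that of DBP3, which is one of them. That median therefore does not show a steeper response of the members to dosage. Without the doubted libraries GAR1 differed from 1, at 2.88 ± 0.49 (edgeR adjusted p 0.0393). In Hh, 33 members were tested, with a median slope of 0.85 beside 0.80 over 2966 genes. Of these 12 were above 0 (36.4%), against 36.1% of genes. The edgeR test called 0 members with a slope other than 1, of which 1 had an unadjusted p below 0.05, against 0.0337% of genes. ENP2 (YGR145W), a processome factor on chromosome VII, had 1.25 ± 0.29 (adjusted p against 0 of 0.00386), RRP9 0.90 ± 0.26 (0.0135) and CBF5 1.59 ± 0.50 (0.0226). Without Hh8 the number above 0 was 6. The 5 members on chromosome XVI, all among the 12, were then not tested, because only Hh8 alters that chromosome in Hh.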

How the data were processed

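The authors deposited raw read counts for each gene in 116 libraries. Libraries were assigned to lines by title, and the description of replicates 2 and 3 of HH2 gives a different line number. The design text counts 12 HH and 6 Hh euploid lines, where the titles give 11 and 5. Per the submitters' processing notes, the build was sacCer3 and the tools included TopHat2 2.1.1, HTSeq 0.6.1pl and Trim Galore 0.4.4. No source used here gives the strand setting, so genes that overlap on opposite strands are uncertain. Reads outside genes or not aligned uniquely stayed out of library sizes and tests, and the deposited FPKM table was not used here. The members, the gene lists and the tests were chosen with earlier results of these data known.

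Genes were filtered with filterByExpr, scaled by TMM and tested in R 4.3.3 by quasi-likelihood (edgeR 4.0.16), fitted over all genes of a comparison and adjusted by Benjamini-Hochberg at 0.05. Class comparisons summed the 3 colonies and took the line as the replicate, so their p-values measure the spread between lines. Comparisons with an ancestor took the colony as the replicate, and nothing says whether ancestor libraries came from separate cultures, so those p-values may measure technical spread only. Every member could be named, and members were described in full where called, where nearest to the threshold, where highest per length in their role, on altered chromosomes, or among the 5 largest differences between ancestors. The log2 CPM of library levels used a prior count of 2, and the dosage ratios added 0.5 to CPM. Promoters were the 250 bases before each start in RefSeq's R64 table, which matched all 59 members. Alternatives were other scalings, no low-count filter, DESeq2 1.42.0, offsets for copy number or coding length, leaving out libraries or lines, and replicate number as a block. The scripts were tested on simulated data.

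Whether replicate numbers pair samples was checked by correlating deviations from line means between libraries of the same number. The mean r was 0.03 in HH, 0.16 in Hh and 0.12 in the ancestors, and the lowest pair was under 0.1 in each, so the numbers were not taken as pairs. Within HH the mean was 0.35 in X libraries, where 54 of 63 pairs were over 0.1, and 0.0022 in SC libraries. The counts of any 2 colonies of a line differed by more than sampling noise (chi-square per degree of freedom of at least 7.04).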

Additional observations from a re-analysis of the deposited data

Results flagged for a closer look

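Named members and the median of the list were checked for a line that stood apart from the others of its class, in HH aneuploid, Hh aneuploid and Hh euploid lines. The HH euploid lines, more than the rule covers, were not checked. Of 36 groups 2 showed such a line, where chance gives about 1 in 20 groups. DBP2 measured 145.6 CPM in Hh76, with the next of the 10 aneuploid Hh lines at 102, and Hh76 carries 3 copies of chromosome XIV, where DBP2 lies. NOC4 measured 87.7 CPM in Hh8, with the next of those lines at 66, and Hh8 carries 4 copies of chromosome XVI, where NOC4 lies.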

How the results depend on the processing

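Relative to all genes the members' medians moved little between scalings, but total counts shifted all genes in Hh (−0.13) and from run 1 to run 2 (0.26). In the Hh class comparison the members called higher numbered 0 under total counts, a copy number offset or without doubted libraries, and 2 under DESeq2 or the length offset. Directions turned there for NOP10 (−0.11), KRR1 (−0.072) and NOP16 (−0.065) under total counts, NOP16 (−0.013) under the copy offset and NOP10 (−0.031) under the length offset. Leaving out 1 line at a time, NOP1 ranged from −0.23 to 0.036, NOP10 from −0.045 to 0.19 and KRR1 from −0.0087 to 0.19. In HH, NOP16 was at 0.0059 over X lines alone and KRR1 at −0.052 without HH108 and HH152. For HH lines against the ancestor, member and line pairs called higher numbered 4 under total counts, 15 under DESeq2 and 47 with the mean of euploid lines as reference. Pairs called lower numbered 3 with that reference and 1 under the length offset. For Hh lines the pairs called higher numbered 2 without the filter, 7 under DESeq2 and 38 with the euploid reference, and those called lower 5 under total counts and 25 with the euploid reference. Between the runs, members called lower numbered 0 under total counts and 2 under the length offset. With run 1 as the reference the Hh ancestor had 18 members called higher, 8 lower and a median of 0.25, with UTP15 at 0.47. In the copy number slopes, 1 HH member differed from 1 without doubted libraries. Without Hh8, where members on chromosome XVI could not be tested, 6 Hh members were above 0. Leaving out 1 library or line at a time, members called ranged from 24 to 33 higher and 0 to 2 lower between runs (median 0.47 to 0.59), and from 9 to 27 lower and 0 to 1 higher for the Hh ancestor against run 2 (median −0.44 to −0.24). The class medians ranged from 0.14 to 0.28 in HH, with 0 members called, and from 0.03 to 0.15 in Hh, with 0 to 3 called higher. Pairs called ranged in HH from 1 to 9 higher and 0 to 72 lower, and in Hh from 0 to 1 higher and 0 to 16 lower, when replicate numbers were left out in turn. With replicate number as a block, though not every same-numbered pair correlated over 0.1, HH had 12 pairs called higher and Hh 6 higher and 18 lower, and between the runs 31 members were called higher and 2 lower. The counts under these alternatives stand without the share of all genes, and the cause of these changes was not tested. The length offset and the runs without HH108 and HH152, HH108 or Hh8 were chosen after seeing the data. Dosage in HH X lines rests on 2 euploid lines.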

Other observations

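Colony numbers ran with the members' level in the HH X lines. In 6 of these 7 lines the colony numbered 3 had the highest level of the members and in 1 line the colony numbered 1 did, while in the 14 HH SC lines the numbers 1, 2 and 3 were highest in 4, 4 and 6 lines, and in the 15 Hh lines in 5, 4 and 6. The numbers are those of the titles. In HH1 the highest colony is numbered 3 but carries the name suffix that number 1 has in the other lines. Over all genes, deviations from the line mean correlated with a mean r of 0.35 between HH X libraries of the same number and −0.17 between those of different numbers, beside 0.0022 and −0.0010 in HH SC. The means were 0.16 and −0.079 in Hh, where 174 of 315 pairs of the same number were over 0.1, and 0.12 and −0.057 in the ancestors. The comparisons with ancestors took these libraries as independent replicates. The labels do not say whether a number marks a shared day or batch.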
